A study of Homo sapiens with 43 samples.

Results

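RNA sites recovered with an antibody against V5, a short peptide tag, were compared between cells with a V5-tagged RNA-binding protein and libraries named V5-only, for which the labels give no protein. The comparison holds 7 samples: the 4 V5-tagged libraries, which are LIN28, RBFOX2 and isoforms 1 and 2 of HNRNPC, and the 3 V5-only libraries cut from the gel at 25 to 100, 50 to 125 and 75 to 150 kDa. They were chosen by their labels, as the V5 libraries of named proteins and the V5-only ranges that lie near the size of these proteins plus 75 kDa. They are 7 of the 25 immunoprecipitation samples with a peak list, in a series of 43 samples. Their lists hold 418193 called peaks, of 1430241 in the 25 lists.

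All libraries came from HEK293T cells, a human embryonic kidney line, by eCLIP (enhanced crosslinking and immunoprecipitation). Ultraviolet light joins proteins to the RNA they touch, a limited RNase digestion shortens the RNA, and the protein is pulled down, run on a gel and cut out with its RNA for sequencing. The V5 antibody had the same catalogue and lot number in all 7 libraries. Per the series title, the tags were placed at the proteins' own genes with CRISPR/Cas9. The labels do not say whether the V5-only cells carried a tag, whether a tagged line was 1 clone or a pool, which LIN28 paralog was tagged, or whether libraries came from separate cultures. Each protein and each gel range has 1 library, so no value for a single protein has a replicate error. The 3 gel ranges overlap one another on the gel. Depth in reads is unknown.

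HNRNPC is a nuclear protein that packages newly made transcripts and binds runs of uridine. RBFOX2 regulates alternative splicing and recognises GCAUG in introns near the exons that it controls. LIN28 blocks the maturation of let-7 microRNAs and binds many messenger RNAs. An antibody also carries down RNA that its target did not bind, which is why a library without the target is used as background in this assay. The files hold positions in the build hg19 and no gene names, and no annotation or genome of that build was used here, so sites are named by position and no sequence is shown.

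A called peak is a stretch of RNA listed by the authors, with their log2 fold of the immunoprecipitation over an input cut from the same gel range and their −log10 p. Both are the authors' own values per peak and serve here to describe, rank and filter the peaks of that list. A peak is called significant below when its −log10 p and its log2 fold both reach 3, the latter being 8-fold. That word refers to the authors' value for a peak and not to a difference between libraries. Intervals are 95% Wilson intervals. They allow for counting error alone and treat neighbouring peaks as independent, which they are not.

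By the share of called peaks that were significant, LIN28 and RBFOX2 stood above all 3 V5-only libraries and both HNRNPC isoforms fell among them. By number, HNRNPC V5 isoform 1 had fewer significant peaks than any of the 3. In LIN28 V5, 10.6% of the 73182 called peaks were significant, which gave 7780 peaks. In RBFOX2 V5 the share was 4.0% of 47459, in HNRNPC V5 isoform 2 it was 1.97% of 59323 and in isoform 1 it was 0.76% of 49319. Among the V5-only libraries, 0.555% of 68969 peaks were significant at 25 to 100 kDa, 1.1% of 66067 at 50 to 125 kDa and 2.69% of 53874 at 75 to 150 kDa. The V5-only library at 75 to 150 kDa, with 1448 significant peaks, exceeded both HNRNPC libraries, with 375 and 1168, and the others had 383 and 727. The groups overlapped. The mean share was 4.34% ± 4.40 (SD, n = 4 libraries) in V5-tagged and 1.45% ± 1.11 (SD, n = 3 ranges) in V5-only libraries, a difference of 2.89 percentage points (two-sided exact permutation p = 0.371 over 35 arrangements, adjusted p = 0.495 over 4 tests). Without LIN28 V5 the difference was 0.796 points. The smallest p that this design allows is 0.0286, and the p only ranks the real labels among arrangements of single libraries of different proteins.

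**Figure D1:**
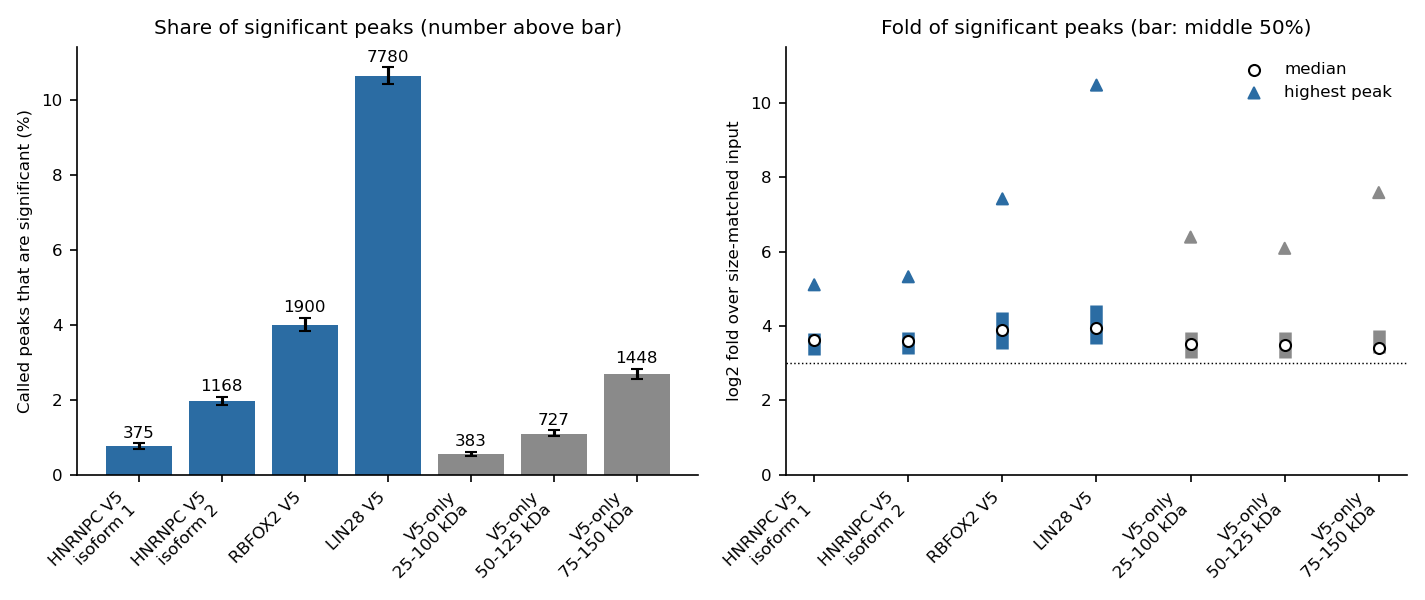
The left panel gives the share of called peaks that are significant in each library, in percent, with 95% Wilson intervals and the number of significant peaks above each bar. The right panel gives the log2 fold of the significant peaks, with the median as a circle, the middle 50% of peaks as a thick bar, the highest peak as a triangle and the threshold of 3 as a dotted line; V5-tagged libraries are blue and V5-only libraries grey.

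The upper end of the fold told the proteins apart more than the typical fold did. The median log2 fold of significant peaks lay between 3.42 and 3.95 in all 7 libraries. Of the LIN28 V5 peaks, 14.9% had a log2 fold of at least 5, and of the RBFOX2 V5 peaks 9.95%. In HNRNPC V5 isoforms 1 and 2 these shares were 0.8% and 0.685%, below the 2.09%, 1.38% and 1.59% of the V5-only libraries in order of gel range. The highest log2 fold was 10.48 in LIN28 V5 and 7.42 in RBFOX2 V5. It was 5.11 and 5.32 in HNRNPC V5 isoforms 1 and 2, where the V5-only libraries reached 6.39, 6.09 and 7.59. The 2 HNRNPC lists thus held no peak as high as the highest V5-only peaks. The commonest log2 fold, a value shared by 10.4% to 14.8% of the peaks of a list, was lowest in HNRNPC V5 isoform 2 at 0.61 and isoform 1 at 0.69 and highest in V5-only at 75 to 150 kDa at 2.54. Its part in these shares was not tested.

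Significant peaks lay close together on the RNA more often in RBFOX2 and LIN28 than in the V5-only libraries. In RBFOX2 V5 51.9% and in LIN28 V5 52.5% of significant peaks had another within 1 kb on the same strand. The share was 34.3% in HNRNPC V5 isoform 2 and 18.1% in isoform 1. It was 18.0%, 22.6% and 17.5% in the V5-only libraries by rising gel range, so isoform 1 lay among them and the other V5-tagged libraries lay above all 3. The group means were 39.2% ± 16.4 (SD, n = 4) and 19.3% ± 2.79 (SD, n = 3), a difference of 19.9 points (two-sided exact permutation p = 0.114, adjusted p = 0.229). Longer lists have more neighbours by number alone, and list length was not separated from clustering. Joined within 1 kb, the LIN28 V5 peaks formed 5138 regions with up to 19 peaks each, and the RBFOX2 V5 peaks formed 1227 regions with up to 13. No V5-only region held more than 8 peaks.

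Almost no significant site of a V5-tagged protein was a significant V5-only site. In HNRNPC V5 isoform 1 this held for 0 of 375 peaks, which allows a share of up to 0.8%. In HNRNPC V5 isoform 2 it held for 3 of 1168 peaks, or 0.257% (0.0874% to 0.752%), and in RBFOX2 V5 for 4 of 1900, or 0.211% (0.0819% to 0.540%). LIN28 V5 had the highest share of the 4, with 126 of 7780 peaks, or 1.62% (1.36% to 1.92%). By gel range, 24 LIN28 V5 peaks overlapped V5-only at 25 to 100 kDa, 51 at 50 to 125 kDa and 55 at 75 to 150 kDa. Of the 126 peaks, 123 lay on a site of 1 range alone, so that 78 remained without the range of 50 to 125 kDa and 72 without that of 75 to 150 kDa. Without the latter, 1 peak of HNRNPC V5 isoform 2 and 2 of RBFOX2 V5 remained. Peaks of the same libraries that were not significant lay at significant V5-only sites in 0.2% and 0.206% of cases for HNRNPC V5 isoforms 1 and 2, 1.07% (0.976% to 1.17%) for RBFOX2 and 1.03% (0.957% to 1.11%) for LIN28. The interval of the significant peaks thus lay below that of the rest of the list in RBFOX2 and above it in LIN28, and the HNRNPC intervals included the share of the rest.

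Seen from the V5-only side, LIN28 held nearly all of the shared sites. At 25 to 100 kDa, 20 of 383 significant V5-only peaks, or 5.22%, lay on a significant peak of any V5-tagged protein, and 19 of these were on LIN28 V5. At 50 to 125 kDa the counts were 45 of 727 for any protein and 43 for LIN28, and at 75 to 150 kDa 52 of 1448 and 51. RBFOX2 V5 accounted for 1, 1 and 2 peaks, HNRNPC V5 isoform 2 for 1 in each range, and isoform 1 for 0. Among all called V5-only peaks, 1861 of 68969, 1740 of 66067 and 1230 of 53874 by rising range lay on a significant LIN28 V5 peak. The counts were 64, 76 and 105 on RBFOX2 V5, 37, 150 and 96 on HNRNPC V5 isoform 2 and 18, 52 and 33 on isoform 1. The long LIN28 list covered 400021 nt, against 113897 nt for RBFOX2 V5 and 15283 nt for HNRNPC V5 isoform 1.

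**Figure D2:**
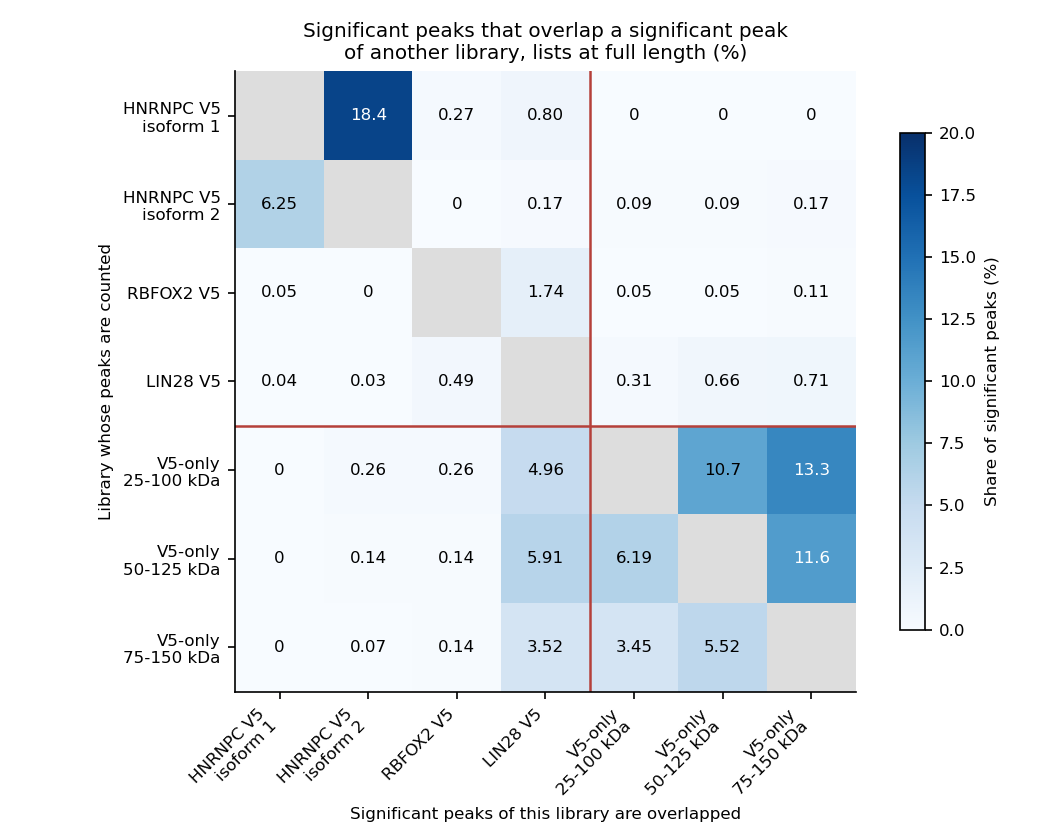
Each cell gives the share, in percent, of the significant peaks of the row's library that overlap a significant peak of the column's library by at least 1 nt on the same strand. Red lines part the V5-tagged from the V5-only libraries; the block of V5-only pairs runs from 3.45% to 13.3% and the HNRNPC isoforms share 18.4% and 6.25%, while V5-tagged peaks lie on V5-only peaks in at most 0.71% of cases for a single range.

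The V5-only libraries, whose gel ranges overlap in part, shared sites with one another. With every list cut to its 375 significant peaks of highest fold, so that length no longer differed, pairs of V5-only libraries overlapped in 5.87% to 8.53% of peaks. The HNRNPC isoforms overlapped in 5.33% and 5.87%, and other pairs of V5-tagged proteins in 0%. Of the pairs of a V5-tagged and a V5-only library, HNRNPC V5 isoform 2 with V5-only at 25 to 100 kDa overlapped in 0.267% of peaks and the others in 0%. The mean was 3.01% within the groups and 0.0222% between them, a difference of 2.99 points (one-sided exact permutation p = 0.0857 over 35 arrangements, adjusted p = 0.229). It was 1.94, 1.62 and 1.83 points without the V5-only library of 25 to 100, 50 to 125 or 75 to 150 kDa, and 4.48 points without RBFOX2 V5 or without LIN28 V5. With all 7 V5-only ranges it was 6.83 points (one-sided exact permutation p = 0.00303, unadjusted). More arrangements allow a smaller p there. The test treats overlapping gel ranges and 2 isoforms of 1 protein as separate libraries, so this p does not measure a difference between independent samples. V5-only ranges without common gel overlapped as well. Of the 375 peaks of V5-only at 25 to 100 kDa, 5.87%, 6.4% and 7.73% lay on peaks of V5-only at 125 to 200, 150 to 225 and 175 to 250 kDa, against 7.2% and 6.13% for the other 2 ranges compared here. The FLAG-only libraries, cut at the same ranges with an antibody against another tag, overlapped the V5-only library of the same range in 20.5%, 19.5% and 10.7% of its 375 peaks by rising range, and those of the other 2 ranges in 2.13% to 5.07%. The series has 1 input per range, labelled without an antibody.

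Joined over the 7 libraries, significant peaks formed 9027 regions. Of these, 6964 had peaks of V5-tagged proteins and of no V5-only library, 1695 had V5-only peaks alone, and 368 had both. LIN28 V5 was present in 311 of the 368, RBFOX2 V5 in 55 and HNRNPC V5 in 29. Of the 5132 regions with LIN28 V5, 6.06% also held a V5-only library. The shares were 4.49% of 1226 for RBFOX2 V5, and 5.33% of 338 and 2.02% of 942 for HNRNPC V5 isoforms 1 and 2. All 3 V5-only libraries were significant in 27 regions, of which 7 also held a V5-tagged protein. No region held all 4 V5-tagged libraries. Both HNRNPC isoforms met in 100 regions, and RBFOX2 and LIN28 in 129.

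A looser measure is any called V5-only peak, significant or not. Such a call need not mean background. The median log2 fold of called V5-only peaks was 1.16, 1.25 and 1.79 by rising gel range, and what a call reflects was not tested. Most significant sites had no such peak. No V5-only peak of any height was called at 80.3% (75.9% to 84.0%) of HNRNPC V5 isoform 1 sites, 81.8% (79.5% to 84.0%) of isoform 2 sites, 90.7% (89.3% to 92.0%) of RBFOX2 sites and 63.5% (62.4% to 64.6%) of LIN28 sites. In RBFOX2 V5 a V5-only peak had been called at 9.26% of significant sites and at 36% of the sites that were not significant. The order was the opposite for HNRNPC, with 19.7% against 14.9% in isoform 1 and 18.2% against 14.2% in isoform 2, and in LIN28 V5 the shares were 36.5% and 38.4%. The libraries of the proteins' own antibodies in wild-type cells, where V5 played no part, gave 9.94% for RBFOX2, 32.6% for LIN28 and 34.2% for HNRNPC. Among the peaks of these wild-type lists that were not significant, the shares were 23.8%, 43.3% and 13.4% in the same order. The intervals of the 2 antibodies overlapped for RBFOX2. For LIN28 the V5 share, 36.5% (35.4% to 37.6%), lay above the wild-type share (30.6% to 34.7%), and for HNRNPC both V5 shares lay below it (31.7% to 36.8%). Each list comes from 1 library, so these intervals do not measure the spread between libraries. A difference between the antibodies was not tested.

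**Figure D3:**
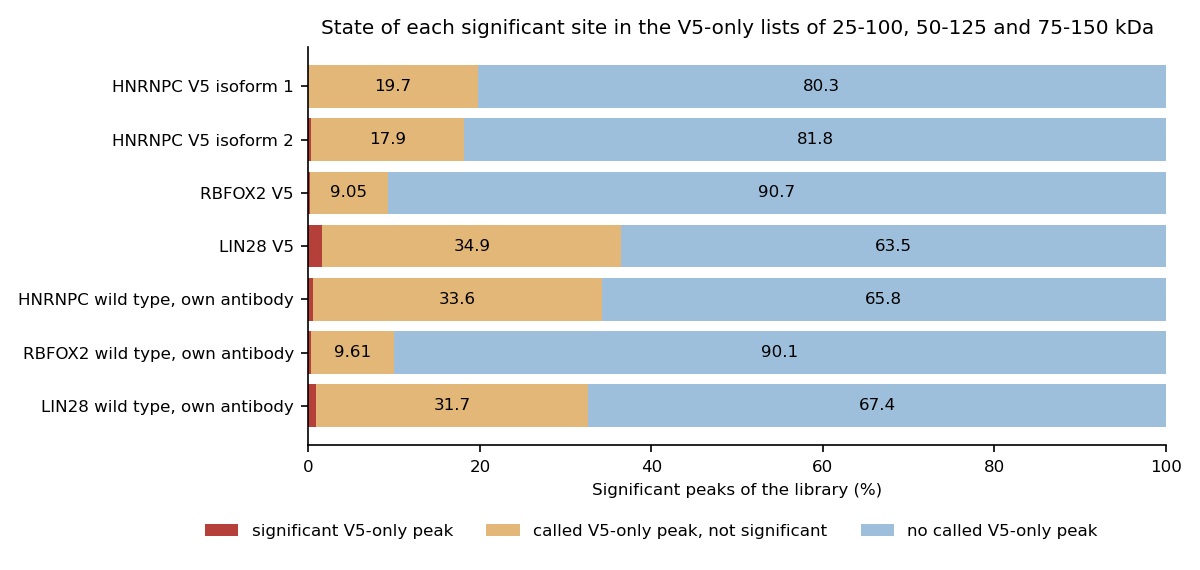
Each bar divides the significant peaks of a library, in percent, by what the V5-only lists of the 3 ranges hold at the same place: a significant peak (red, at most 1.62%), a called peak that is not significant (tan) or no called peak (blue). RBFOX2 has the highest share without a V5-only peak with either antibody, 90.7% and 90.1%.

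From class to class of rising fold, the share of LIN28 V5 sites with a called V5-only peak fell. That of RBFOX2 V5 sites fell from the first class to the next. In LIN28 V5 a V5-only peak had been called at 40.7% of the 4134 sites with a log2 fold of 3 to under 4, at 33.1% of the 2485 sites of 4 to under 5 and at 28.5% of the 1161 sites of 5 and above. In RBFOX2 V5 the shares were 11.8% of 1057, 6.12% (4.52% to 8.22%) of 654 and 5.82% (3.28% to 10.1%) of 189 sites. Among the 100 LIN28 V5 peaks of highest fold, however, 43 had a called V5-only peak, against 4 of 100 in RBFOX2 V5. HNRNPC showed no such fall from the first class to the next, with 19.8% and 20.4% in isoform 1 and 18.0% and 19.0% in isoform 2, and had 3 and 8 peaks in the highest class. In the wild-type libraries the shares by rising class were 37.9%, 25.3% and 29.9% for LIN28 and 12.4%, 8.01% and 4.90% for RBFOX2. For HNRNPC wild type they were 32.8%, 35.9% and 64.7%, the last of 34 peaks.

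At the places where V5-only libraries were significant, the typical V5-tagged HNRNPC peak was near or below its input. Isoform 1 had 22, 28 and 59 called peaks on significant V5-only sites of the 3 ranges in rising order. Their median log2 folds were −0.56, 0.18 and 0.10, where its peaks elsewhere had 1.11. In isoform 2 the medians were −0.85, −0.71 and −0.17 over 28, 34 and 75 peaks, against 1.19 elsewhere, and 67.9%, 55.9% and 54.7% of these peaks had a negative fold. RBFOX2 V5 stood at 0.66, 0.97 and 0.86, against 1.30 elsewhere, and 0.952%, 0.610% and 0.722% of its peaks on those sites were significant, against 4.01% to 4.02% elsewhere. LIN28 V5 differed from these, with medians of 1.40, 1.85 and 1.57 against 1.51 elsewhere. Of its peaks on significant V5-only sites, 14.7% (10.1% to 21%), 16.6% (12.8% to 21.1%) and 14.2% (11.1% to 18.1%) were significant, against 10.6% elsewhere in the list.

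**Figure D4:**
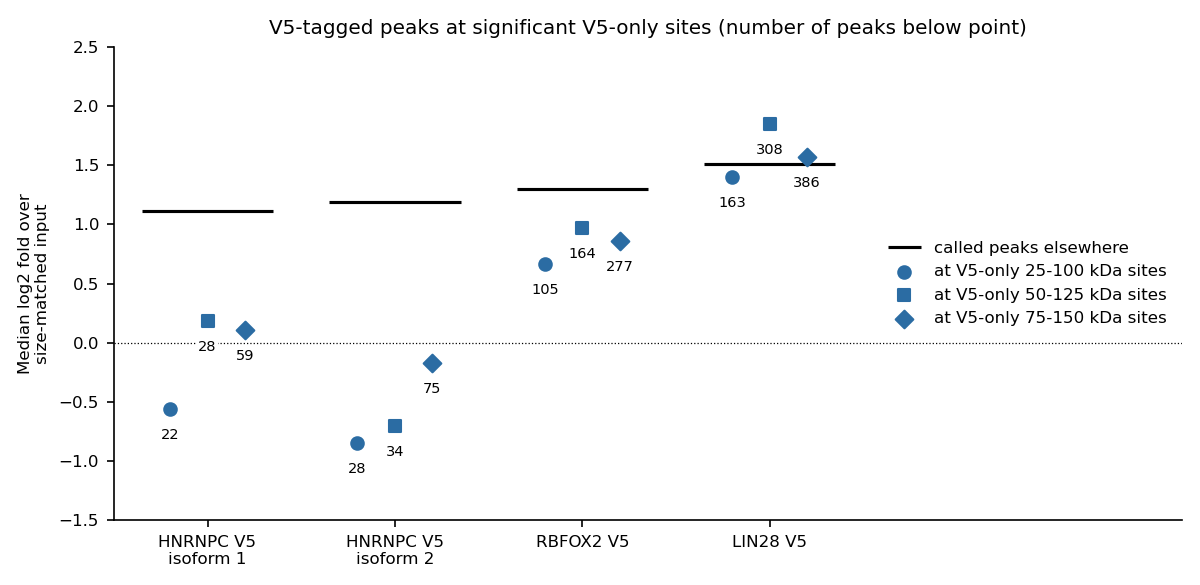
Points give the median log2 fold over input of the called peaks of each V5-tagged library that lie on significant sites of 1 V5-only range, with the number of peaks under each point; black lines give the median of the called peaks of that library elsewhere. The HNRNPC points lie between −0.85 and 0.18, the RBFOX2 points lie below their line at 1.30, and the LIN28 points lie around theirs at 1.51.

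The V5-only library at 50 to 125 kDa had called peaks on 23.9% of significant LIN28 V5 sites, 14.1% and 14.0% of the sites of HNRNPC V5 isoforms 1 and 2 and 4.16% of RBFOX2 V5 sites. Of its 1740 called peaks on LIN28 V5 sites 2.47% (1.84% to 3.31%) were significant, against 1.06% elsewhere. At 25 to 100 kDa these shares were 1.02% and 0.542%, and at 75 to 150 kDa 4.15% and 2.65%. The lower bounds, 0.655% and 3.17%, lay above the shares elsewhere in those ranges too. On the sites of the other proteins at most 2 peaks of a V5-only library were significant. At 25 to 100 kDa these were 1 of 37 called peaks on HNRNPC V5 isoform 2 sites, or 2.70% (0.479% to 13.8%), and 1 of 64 on RBFOX2 V5 sites, or 1.56% (0.276% to 8.33%), wide intervals that include the LIN28 share.

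Whether sites without a called V5-only peak are also those seen by an antibody against the protein itself was examined with the wild-type libraries. Of the significant peaks without a called V5-only peak, 47.3% (44.9% to 49.6%) in RBFOX2 V5 and 31.4% (30.2% to 32.8%) in LIN28 V5 overlapped a significant peak of the same protein's own antibody. Where a V5-only peak had been called, the shares were 40.3% (33.4% to 47.7%) and 24.2% (22.7% to 25.9%). The differences were 6.93 points (95% Newcombe interval −0.81 to 14.3) for RBFOX2, which includes 0, and 7.20 points (5.15 to 9.22) for LIN28. HNRNPC went the other way. The shares were 20.6% (16.4% to 25.5%) without and 31.1% (21.7% to 42.3%) with a called V5-only peak in isoform 1, a difference of −10.5 points (−22.5 to 0.12). In isoform 2 they were 9.94% (8.20% to 12%) and 27.4% (21.8% to 33.7%), a difference of −17.4 points (−24.0 to −11.5). This split by called peaks was chosen after the data had been seen, because significant V5-only sites were so few. The difference in direction between proteins was not tested.

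**Figure D5:**
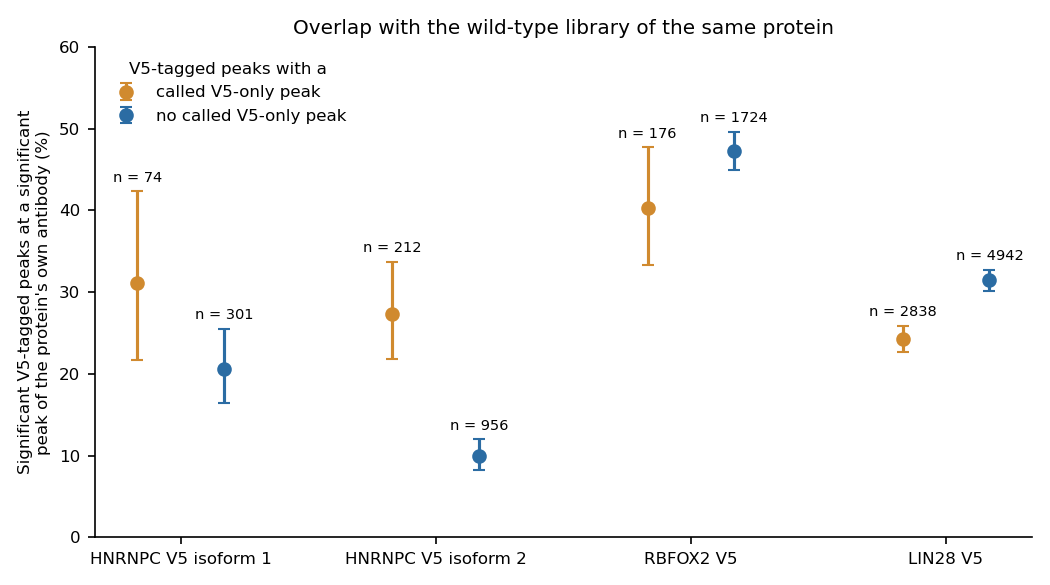
Points give the share of significant V5-tagged peaks that overlap a significant peak of the wild-type library made with the protein's own antibody, in percent with 95% Wilson intervals, for peaks with (orange) and without (blue) a called V5-only peak; n is the number of V5-tagged peaks. Blue lies above orange for RBFOX2 and LIN28 and below it for both HNRNPC isoforms.

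At significant V5-only sites alone, 21 of the 126 LIN28 V5 peaks, or 16.7% (11.2% to 24.1%), overlapped a significant peak of LIN28's own antibody, against 29.0% of the 7654 others. With a looser threshold, a log2 fold of at least 2, that difference of 12.4 points turned to −5.61 points. All 4 RBFOX2 V5 peaks at significant V5-only sites, and 1 of the 3 of HNRNPC V5 isoform 2, overlapped a significant peak of the own antibody. A called, not necessarily significant, wild-type peak lay at 94.8% of the isoform 2 sites that had a called V5-only peak and at 64.3% of those that had none. For LIN28 V5 these shares were 84.4% and 71.4%, and for RBFOX2 V5 74.4% and 75.1%. LIN28 V5 sites with and without a called V5-only peak also differed in fold, with medians of 3.83 and 4.03 on the log2 scale. Within the class of log2 fold 5 and above, 72.8% of 331 and 74.6% of 830 LIN28 V5 peaks overlapped the own antibody's sites. In the class of 4 to under 5 the shares were 30.5% of 823 and 32.9% of 1662, and in that of 3 to under 4 11.6% of 1684 and 15.9% of 2450. Each class thus showed a smaller difference than the 7.20 points over all LIN28 V5 peaks.

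Sites shared with the own antibody and clear of V5-only peaks were the largest share in RBFOX2. In RBFOX2 V5, 815 of 1900 peaks, or 42.9%, met both conditions, and in LIN28 V5 1554 of 7780. The numbers were 62 of 375, or 16.5%, in HNRNPC V5 isoform 1 and 95 of 1168, or 8.13%, in isoform 2. A further 239 peaks of isoform 1, 861 of isoform 2, 909 of RBFOX2 and 3388 of LIN28 had neither a V5-only peak nor a significant wild-type peak. Their source was not tested.

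The RBFOX2 sites of highest fold that had no called V5-only peak were strong with both antibodies. At chr2:9078624-9078828 (minus strand) the log2 fold was 7.36 in RBFOX2 V5 and 4.16 in RBFOX2 wild type. At chr5:139646495-139646616 (minus strand) the values were 7.03 and 5.36, with 7.31 in wild type elsewhere in the same region, and at chr1:227955478-227955576 (plus strand) they were 7.01 and 7.49. No HNRNPC or LIN28 V5 peak had been called in these 3 regions. The densest RBFOX2 V5 region, with 13 significant peaks over 1159 nt, lay at chr9:130994999-130996157 (plus strand). Its highest log2 fold was 5.82 in V5 and 7.90 in wild type, and LIN28 V5 had 1.30 there.

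The LIN28 sites chosen by the same rule were also seen by both antibodies. They lay at chr21:48079110-48079168 and chr12:66359723-66359799 (both plus strand) and at chr16:10624335-10624400 (minus strand). In that order they had a log2 fold of 8.25, 8.19 and 8.14 in LIN28 V5 and 6.85, 6.22 and 6.26 in LIN28 wild type. The densest LIN28 V5 region held 19 significant peaks over 2086 nt, at chrX:112019299-112021384 (minus strand). Its highest log2 fold was 5.96, with 4.66 in LIN28 wild type, and no V5-only library had a called peak in it. RBFOX2 wild type reached 3.48 in the same region, and RBFOX2 V5 1.5.

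The HNRNPC sites of highest fold were ranked within each isoform's own single library. A lower fold in the other isoform is thus expected from the choice, and a difference between isoforms was not tested. Of the 3 sites of isoform 1, 2 were also significant in isoform 2 and none in HNRNPC wild type. At chr10:96323428-96323448 (plus strand) isoform 1 had a log2 fold of 5.11, isoform 2 had 3.5 and HNRNPC wild type 2.35. At chr1:16212381-16212399 (plus strand) the values were 4.84, 3.66 and 3.43. At chr7:26234783-26234813 (minus strand) isoform 1 had 5.04, isoform 2 had 2.72 and no wild-type peak was called on it, while the highest peaks of its whole region, chr7:26234359-26234925, had 3.99 in isoform 2 and 3.12 in wild type. The 3 sites of isoform 2 were not significant in isoform 1 or in HNRNPC wild type. At chrX:70509500-70509524 (plus strand) isoform 2 had 5.23, isoform 1 1.69 and wild type 0.84. At chr5:176575141-176575154 (plus strand) the values were 5.17, 2.02 and 2.64. At chr22:28917187-28917204 (minus strand) isoform 2 had 5.13 and no peak was called in the others.

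Of the 27 regions significant in all 3 V5-only ranges, the 5 strongest are given here, and 1 of these 5 was also significant in a V5-tagged library. The strongest, at chr3:160122407-160122417 (plus strand), had log2 folds of 6.39, 6.09 and 6.60 by rising gel range. No peak was called there in any V5-tagged library or in the wild-type libraries of HNRNPC, RBFOX2 and LIN28. The same was true at chr19:24187267-24187290 (minus strand) with 5.82, 5.47 and 5.05. At chr17:18965409-18965449 (plus strand) the folds were 3.97, 5.39 and 6.28. This site was also significant in LIN28 V5, at 3.30, and stronger in LIN28 wild type, at 5.76, while RBFOX2 V5 had 1.88. At chr7:101460733-101460739 (plus strand) the V5-only folds were 5.39, 4.55 and 4.90, LIN28 V5 had 0.98 and LIN28 wild type 2.59. At chr3:49940109-49940114 (minus strand) they were 4.43, 4.28 and 5.54, RBFOX2 V5 had 2.88 and LIN28 wild type 3.59, the last 2 not significant.

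The few V5-tagged peaks at significant V5-only sites were examined individually. In HNRNPC V5 isoform 2 a site at chr7:139051739-139051784 (plus strand) was the highest of that list, with a log2 fold of 5.32. V5-only had 3.48, 3.29 and 2.61 there by rising range, and HNRNPC wild type had 5.01. The other 2 peaks of isoform 2 adjoined each other at chr7:1609360-1609406 (minus strand), with 3.58 and 4.58, and V5-only at 75 to 150 kDa had 3.86. In RBFOX2 V5, adjoining peaks at chr15:96826150-96826168 (minus strand) both had 5.0, against 3.06 in V5-only at 75 to 150 kDa and 5.87 in RBFOX2 wild type. The other RBFOX2 V5 peaks, at chr4:109543355-109543360 and chr20:61914677-61914778 (both plus strand), had 3.11 and 3.08. The highest V5-only folds there were 3.14 and 3.19, and RBFOX2 wild type had 3.27 and 4.29. LIN28 V5 was also significant at both chr15 peaks, at 3.74, and at the chr4 peak, at 3.94, where LIN28 wild type had 3.22. At the chr20 peak LIN28 V5 had −1.13.

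Some regions, joined from peaks within 1 kb, held several V5-tagged proteins and a V5-only library. Their peaks need not overlap. One lay at chrX:23801921-23803665 (plus strand). Its highest log2 folds were 3.75 in HNRNPC V5 isoform 1, 3.30 in RBFOX2 V5, 3.30 in LIN28 V5 and 3.83 in V5-only at 50 to 125 kDa, with 1.68 in HNRNPC V5 isoform 2. No V5-tagged peak was called on that V5-only peak itself. A region at chr10:79797040-79797722 (plus strand) had 3.20 and 3.19 in the HNRNPC isoforms, 3.56 in LIN28 V5 and 3.16 in V5-only at 50 to 125 kDa, where RBFOX2 V5 had 0.26. The V5-only peak overlapped the LIN28 V5 peak, on which no HNRNPC V5 peak was called. In the region at chr9:36211715-36212024 (plus strand) LIN28 V5 reached 6.35, RBFOX2 V5 3.30 and V5-only at 75 to 150 kDa 3.13, and no HNRNPC V5 peak was called. The RBFOX2 V5 peak overlapped the LIN28 V5 peak, on which no V5-only peak was called.

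Mitochondrial RNA made up little of any list. LIN28 V5 and V5-only at 75 to 150 kDa had 3 significant peaks each on the mitochondrial chromosome and the other 5 libraries had 0, although each list held 129 to 270 called peaks there. The mean share of significant peaks was 0.00964% ± 0.0193 (SD, n = 4) in V5-tagged and 0.0691% ± 0.120 (SD, n = 3) in V5-only libraries (two-sided exact permutation p = 0.714, adjusted p = 0.714). With a looser threshold, a log2 fold of at least 2, the difference was −0.195 points (two-sided exact permutation p = 0.0286, unadjusted, the smallest the design allows), and without V5-only at 75 to 150 kDa at the main threshold it was 0.00964 points.

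The V5-only background was also set against the FLAG-only background of the same 3 ranges, in lists of 375 peaks. HNRNPC V5 isoform 1 and LIN28 V5 lay on neither in 375 peaks each. HNRNPC V5 isoform 2 lay on V5-only in 1 peak and on FLAG-only in 0, and RBFOX2 V5 in 0 and 2. Each interval of the differences included 0. With lists at full length, 5.08% of LIN28 V5 peaks lay on FLAG-only and 1.62% on V5-only sites, a difference of −3.46 points (−4.03 to −2.90). The FLAG-only lists are longer. Of the 126 LIN28 V5 peaks at a V5-only site 46.0% were also at a FLAG-only site, against 4.40% of the 7654 others. Of all significant V5-only peaks, 37.9%, 53.6% and 26.3% by rising range lay at a FLAG-only site of the 3 ranges.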

How the data were processed

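eCLIP peak lists of 7 V5 libraries of HEK293T cells were analysed, with the wild-type libraries of HNRNPC, RBFOX2 and LIN28 and the FLAG-only libraries of the same gel ranges for comparison. The submitters' processing notes name cutadapt, STAR, GATK, Picard, SAMtools and hg19, without versions. No source used here names the peak caller. Each deposited list had 1 library behind it, so peaks had been called per library. The authors deposited a −log10 p per peak, which ran up to a cap of 400, and a log2 fold of the immunoprecipitation over its size-matched input. Read totals were not used, so the depth per library is unknown.

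Peaks of 2 lists were matched where they shared 1 nt or more of a strand, and peaks within 1000 nt of each other on a strand were joined to regions. Shares carry 95% Wilson intervals and differences of shares Newcombe intervals. A share of 0 was given the limit of 3 counts. The 4 tests between groups were exact permutations over the 35 arrangements of 7 libraries, with Benjamini-Hochberg adjustment over the 4. Python 3.11.15, numpy 2.4.6, pandas 2.3.3, scipy 1.17.1 and matplotlib 3.10.9 were used, and the overlap routine was checked on simulated intervals.

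Regions were named by rule, and values of other libraries at a named peak are of peaks that overlap it, or over the whole region where the text says so. For each V5-tagged library these were the 3 of highest fold that had no called V5-only peak and reached a −log10 p of 5, and the region with most peaks. For the V5-only libraries they were the 5 strongest significant in all 3 ranges, and regions shared between groups were taken by the number of libraries. The few HNRNPC and RBFOX2 peaks at significant V5-only sites were named after their values had been seen. The libraries compared, the lists and the tests were chosen with earlier results of these data known. Gene lists and short sequence words were not analysed here, since no genome of the files' build was used.

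Alternatives were a −log10 p minimum of 5 (stricter), a log2 fold minimum of 2 (looser), a match over 50% of both peaks, a distance of 1 kb, all 7 V5-only ranges, full-length in place of equal lists, and leaving out each library. The FLAG-only libraries as background and the split by any called V5-only peak were added after seeing the data.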

Additional observations from a re-analysis of the deposited data

Results flagged for a closer look

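Among 6 measures over the 4 V5-tagged libraries, LIN28 V5 lay far from the others in 1, the share of significant peaks at a significant V5-only site, which was 1.62% where the next was 0.257%. The 4 libraries are different proteins and not replicates, and a value this far out also arises by chance now and then in so few values. In lists of 375 peaks of highest fold, 0 LIN28 V5 peaks lay at a V5-only site. By region, the share with a V5-only library was 6.06% for LIN28 V5, 4.49% for RBFOX2 V5, and 5.33% and 2.02% for HNRNPC V5 isoforms 1 and 2.

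The change in overlap with the protein's own antibody, from sites with to sites without a called V5-only peak, differed in direction between the proteins. It was −10.5 points in HNRNPC V5 isoform 1 and −17.4 points in isoform 2, and 6.93 points in RBFOX2 V5 and 7.20 points in LIN28 V5. The difference between proteins was not tested, and the RBFOX2 and isoform 1 intervals include 0.

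A V5-only range outside the comparison, 125 to 200 kDa, was met by more V5-tagged sites than any of the 3 ranges compared. Its significant peaks lay at 2.40% of HNRNPC V5 isoform 1 sites, 1.54% of isoform 2 sites, 1.32% of RBFOX2 V5 sites and 4.79% of LIN28 V5 sites, where the highest of the 3 ranges gave 0%, 0.171%, 0.105% and 0.707%. This range was singled out after its values had been seen. In lists of 375 peaks of highest fold it was met by none of the 4 V5-tagged libraries. The shares above are of lists at full length, and the part of list length was not tested. Shares among peaks that were not significant are not given for this range. At full length it was also met by 26.1%, 33.8% and 14.8% of significant V5-only peaks of the 3 ranges in rising order. Of the significant HNRNPC wild-type peaks, made without a tag antibody, 4.64% lay at its sites.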

How the results depend on the processing

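Of 157 alternative values, 94 kept their direction and side of the threshold or moved by less than their interval. Under the looser threshold the share of significant peaks at significant V5-only sites was 2.83%, 1.51%, 2.20% and 9.25% for HNRNPC V5 isoform 1, isoform 2, RBFOX2 and LIN28, and the share without a called V5-only peak 70.5%, 76.7%, 84.0% and 57.0%. Under the stricter threshold the former was 0.758% in isoform 2 and 0.990% in LIN28, and the latter 72.3% in isoform 1, 74.5% in isoform 2 and 60.6% in LIN28. With 50% of both peaks shared, LIN28 had 0.720% at significant sites, and 88.3%, 89.3%, 96.4% and 82.5% of sites had no called peak. Within 1 kb the shares were 5.07%, 2.48%, 3.79% and 6.75% at significant sites and 33.1%, 53.3%, 45.1% and 23.1% without a called peak. With all 7 V5-only ranges they were 4.0%, 2.48%, 1.89% and 7.56%, and 65.3%, 66.8%, 82.4% and 54.7%. With FLAG-only libraries as background the share at significant sites was 0% in isoform 2 and 5.08% in LIN28.

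Without 1 V5-only library the share at significant sites was 0% for isoform 1 and ran from 0.0856% to 0.257% in isoform 2, 0.105% to 0.158% in RBFOX2 and 0.925% to 1.35% in LIN28. The share without a called peak ran from 81.3% to 89.1%, 82.4% to 89.2%, 91.8% to 94.1% and 66.6% to 71.0%. Leaving out 1 of the 7 libraries gave differences between the groups of 0.796 to 4.09 points in the percent significant, 1.62 to 4.48 points in the mean overlap and 15.4 to 26.9 points in the share within 1 kb. For mitochondrial peaks they ran from −0.0940 to 0.00964 points, the positive value arising without V5-only at 75 to 150 kDa, and the looser threshold gave −0.195 points (two-sided exact permutation p = 0.0286). With all 7 ranges the mean overlap differed by 6.83 points (one-sided exact permutation p = 0.00303), where more arrangements allow a smaller p.

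The own-antibody overlap off minus at significant V5-only sites rests on 4 peaks in RBFOX2, where it was −53.5 points. It was −63.1 points with 50% of both peaks, and turned to 6.93 points when split by any called peak, 12.1 at the looser threshold and 13.6 with all 7 ranges. In LIN28 it was 12.4 points, −5.61 at the looser threshold and 4.13 with all 7 ranges. Split by called peaks, all 4 libraries kept their direction under the 4 alternatives run, with −31.5, −26.4 and 1.93 points for isoform 1, isoform 2 and LIN28 at the looser threshold. The V5-only minus FLAG-only overlap was −1.98 points (−6.93 to 1.96) for RBFOX2 at the stricter threshold, −3.46 points (−4.03 to −2.90) for LIN28 with full-length lists and 0.978 points (0.356 to 1.85) for isoform 1 at the looser threshold. The causes were not tested. Short sequence words were not run. No paired analysis was possible because each group has 1 library. Depth in reads is unknown, so a missing peak does not show a missing site.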

Other observations

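Significant peaks of the V5-tagged libraries lay on chromosome 1 at a higher share than the called peaks of the same lists. In HNRNPC V5 isoform 1, 17.1% of significant and 10.7% of called peaks lay there, in isoform 2 14.0% and 10.6%, and in HNRNPC wild type 16.9% and 10.5%. The shares were 12.9% and 10.4% in RBFOX2 V5, 12.5% and 10.8% in LIN28 V5, 11.1% and 10.5% in RBFOX2 wild type and 13.1% and 10.8% in LIN28 wild type. In the V5-only libraries by rising gel range the significant shares were 10.4%, 10.9% and 9.88%, against 11%, 10.8% and 10.9% of called peaks. Chromosome 19 held 11.2% of the significant and 6.63% of the called peaks of V5-only at 25 to 100 kDa, and 5.6% and 7.77% of those of HNRNPC V5 isoform 1. These chromosomes were chosen after their values had been seen, and no test was made.

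Significant peaks were narrower in HNRNPC than in the other libraries. The median width was 40 nt in HNRNPC V5 isoform 1, 38 nt in isoform 2 and 43 nt in HNRNPC wild type. It was 55 nt in RBFOX2 V5 and 51 nt in LIN28 V5, and 56, 53 and 48 nt in the V5-only libraries by rising gel range.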
